A study of Homo sapiens with 3 samples.

Results

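The genes described here are 47 listed targets of the miR-17 family of microRNAs. They were chosen by gene symbol, with earlier results of these data known. Of these, 46 were found among the 12040 genes of the deposited table. KIAA0513 was the listed gene not analysed here. Poly(A) RNA was sequenced from 3 libraries of HEK293, an established human embryonic kidney line, here a T-Rex Flp-In derivative that carries a FLAG-tagged DICER1 transgene in all groups. One library each came from cells with DICER1 knocked down, from cells with DROSHA knocked down and from mock-transfected cells, with RNA interference by transfection, and every title bears the mark 2.5d, which is not explained. The stated purpose was to assess the regulatory effect of Dicer binding, with the other libraries as controls. The table has no column names. Its 2 fold changes, which share a denominator library, are therefore called the first and the second comparison and are not assigned to a knockdown. Without replicates there is no error between samples and no test, and all values describe single libraries. Rises and falls are counted from a log2 fold change of 1 in size. Sizes of 0.5 and signs are counted as well.

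MicroRNAs are short RNAs that guide Argonaute proteins to messenger RNAs, mostly through pairing of the microRNA's seed with the 3' UTR, and the bound transcripts are translated less and degraded sooner. DROSHA cuts the hairpin out of the primary transcript in the nucleus, and DICER1 cuts the exported hairpin to the mature duplex. The miR-17 family comes from the oncogenic cluster in MIR17HG and its paralogous clusters, is abundant in proliferating cells, and is known for acting on E2F factors, pocket proteins and TGF-beta receptors.

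The 6 family members were matched by name to RefSeq sequences on GRCh38.p14. They are shown because 1 seed, bases 2 to 8, is common to all of them. The seed is in capitals and each mature RNA is written 5′ to 3′.
miR-17-5p: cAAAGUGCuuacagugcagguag
miR-20a-5p: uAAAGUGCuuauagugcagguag
miR-20b-5p: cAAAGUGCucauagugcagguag
miR-93-5p: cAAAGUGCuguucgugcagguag
miR-106a-5p: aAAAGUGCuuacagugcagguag
miR-106b-5p: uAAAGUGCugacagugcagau

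All 6 carry AAAGUGC, and of the mature human microRNAs in the same table only miR-519d-3p and miR-526b-3p also do, which makes 8. The mature sequences of miR-17 (chr13:91350618-91350640, plus strand) and miR-20a (chr13:91351072-91351094, plus strand) lie within MIR17HG. Those of miR-93 (chr7:100093815-100093837, minus strand) and miR-106b (chr7:100094043-100094063, minus strand) lie within MCM7, a subunit of the replicative helicase. The authors' deposited table gave MCM7 a first value of 0.15 and a second of -0.23. MIR17HG was not analysed here. Mature microRNAs were not measured in this series.

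The seed pairs with GCACTTT in a transcript, here searched on the sense strand of the 3' UTR of 1 GENCODE transcript per gene (GRCh38). Every one of the 46 genes held at least 1 such 7-base match, against 2417 of 10357 genes with an annotated 3' UTR of 50 bases or more (23.3%). The genes were listed as targets of this family, and target lists rest in part on such matches, so that share is no independent evidence. The match was followed by A, which gives the 8-base match GCACTTTA, in 27 of the 46 genes (58.7%), against 5.33% of all genes with a 3' UTR. Another overlapping set of 27 genes had 2 or more matches to GCACTTT (58.7% against 6.73%). The 3' UTRs of the target genes were longer, with a median of 2454 bases against 1190. Over the 46 genes there were 31 matches of 8 bases, 58 of bases 2 to 8 alone, and 13 of CACTTTA, the match to bases 2 to 7 followed by A.

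The following sites belong to the genes with the highest and lowest values and to members of the E2F, pocket protein and TGF-beta pathways. Each is written 5′ to 3′ on the transcript strand with 8 bases on either side, and the seed match is in capitals.
GPR137B: tttttaggGCACTTTtccttaag
ZNF367: agagaactGCACTTTtttaatat
ZNFX1: tagagtaaGCACTTTAtctccaga
ZBTB4: tgtttctgGCACTTTAgaaaaact
UBE3C: tgcagtagGCACTTTAtcaggacc
LIMA1: gactgaatGCACTTTAgtataaag
TGFBR2: taacatttGCACTTTAttaatgcc
RBL2: aagtggagGCACTTTAgggctgta
E2F1: ctctaactGCACTTTcggccctt
E2F3: tgacaccaGCACTTTAaactcttt
TNKS2: ttttttcaGCACTTTAacagatgc
LIMK1: ttctcagtGCACTTTgaacctgg

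On GRCh38 the seed match of GPR137B lies at chr1:236208235-236208241 (plus strand), 77 bases into its 3' UTR. The match shown for ZNF367, which has 2 to GCACTTT, lies at chr9:96388068-96388074 (minus strand). The match shown for ZNFX1, which has 4, lies at chr20:49246776-49246783 (minus strand). ZBTB4 has its 8-base match at chr17:7460073-7460080 (minus strand), UBE3C at chr7:157268801-157268808 (plus strand) and LIMA1 at chr12:50176641-50176648 (minus strand). The site shown for TGFBR2 is at chr3:30691867-30691874 (plus strand) and that shown for RBL2 at chr16:53490934-53490941 (plus strand). For E2F1 the site shown is at chr20:33676339-33676345 (minus strand) and for E2F3 at chr6:20492254-20492261 (plus strand). TNKS2 carries its site at chr10:91863203-91863210 (plus strand) and LIMK1 at chr7:74122377-74122383 (plus strand). All are in annotated 3' UTRs. A match of letters is a description and not evidence of binding.

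**Figure D1:**
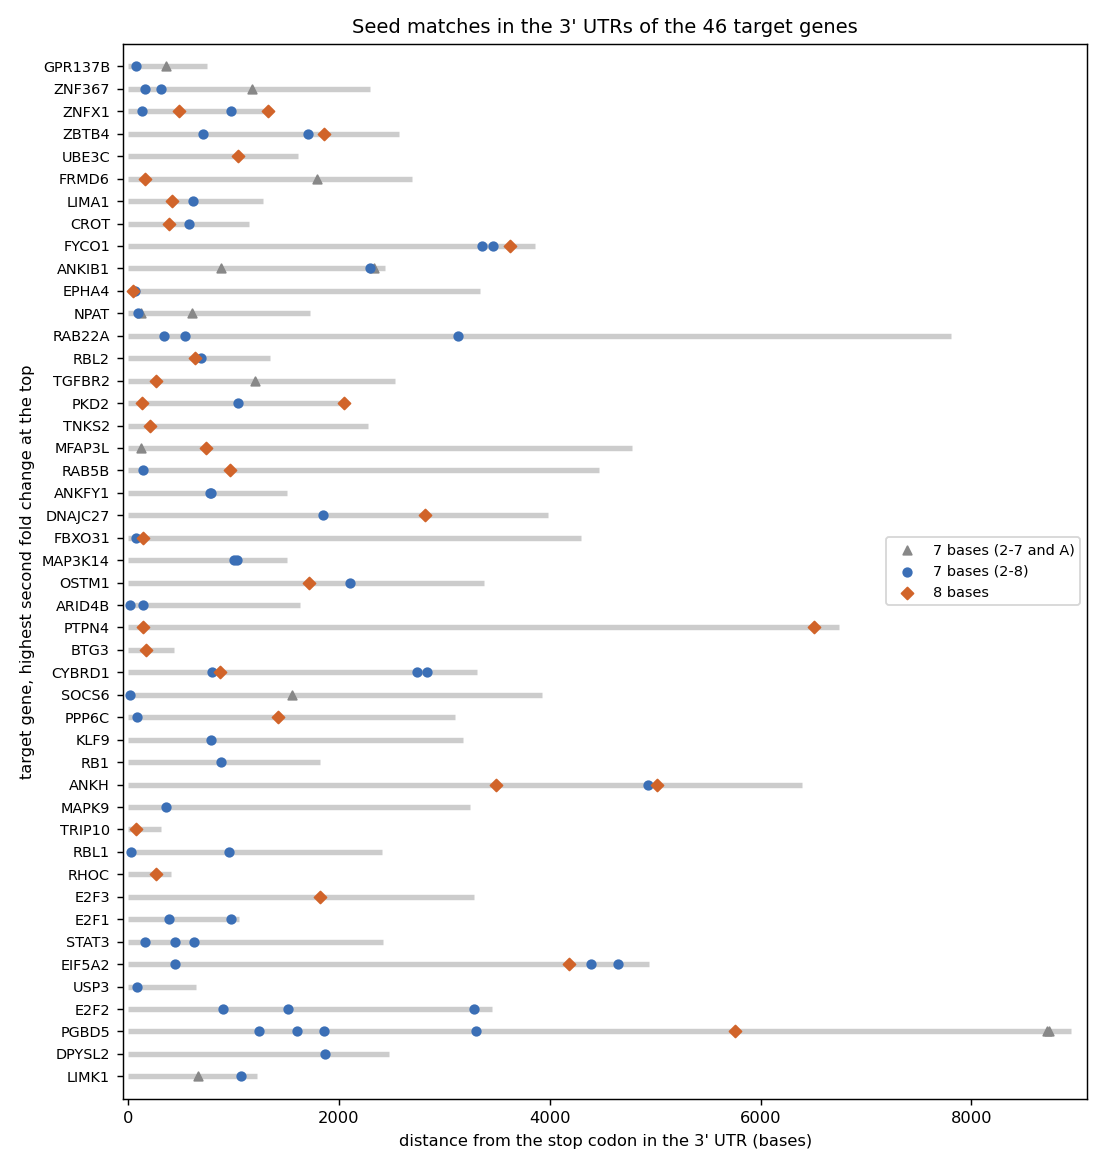
Seed matches (symbols, by class) along the 3' UTR (grey bar, in bases from the stop codon) of each of the 46 target genes, ordered by the second fold change. Every gene has a match to bases 2 to 8, and genes at the top and at the bottom of the order both carry several.

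As a check of the knockdowns, the authors' deposited table gave DICER1 -1.32 (first) and 0.58 (second), and DROSHA -0.11 and -1.65. Endogenous and transgenic DICER1 cannot be told apart in these values. Of the HEK293 marker list, the epithelial keratins KRT8 and KRT18, the intermediate filament gene VIM and the neurofilament genes NEFL and INA were among the genes analysed, 5 of 7 listed. The authors' deposited table put their first values between -0.10 (KRT8) and 1.05 (INA) and their second values between -0.57 (INA) and 0.01 (KRT18), and the part of this in the target genes' values was not tested. Their levels were not used here, and markers of leukocytes, endothelium, liver and fibroblasts were not analysed here. In bulk RNA, fewer cells of a kind and less RNA per cell cannot be told apart.

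As deposited, the values of the target genes lay above those of all genes in the second comparison and close to them in the first. Because the genes were chosen with earlier results of these data known, that contrast is no independent evidence. The 10357 genes with an annotated 3' UTR were adjusted for GC content and the lengths of transcript and 3' UTR. After that the contrast between the 2 comparisons was smaller. The adjusted medians were 0.10 in the first (33 of 46 above 0, 71.7%) and 0.17 in the second (31 of 46 above 0, 67.4%). Over the 10357 adjusted genes, grouped by strongest seed match, adjusted shares above 0 ran from 57.0% to 60.5% in the first comparison. There the adjusted group medians ran from 0.026 to 0.044. In the second, the shares ran from 49.3% to 60.3%. In the second comparison the authors' deposited table gave the 46 genes a median of 0.21 (quartiles -0.08 and 0.43) against 0.0063 over all 12040 genes (quartiles -0.18 and 0.17). There 31 of the 46 lay above 0 (67.4%), against 51.1% of all genes. GPR137B alone rose (2.17% of the 46, against 0.0831% of all genes) and none fell (against 0.748%). At the smaller size, 7 genes stood at 0.5 or more (15.2%, against 2.33%) and 3 at -0.5 or less (6.52%, against 5.59%).

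In the first comparison the authors' deposited table gave the 46 genes a median of 0.04 (quartiles -0.06 and 0.21), against 0.03 over all genes (quartiles -0.10 and 0.15). Above 0 lay 29 of 46 (63.0%), against 56.5% of all genes. None of the 46 rose, against 0.174% of all genes, and none fell, against 0.166%. PGBD5 alone stood at 0.5 or more (2.17%, against 1.46%), and 3 genes stood at -0.5 or less (6.52%, against 2.04%).

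**Figure D2:**
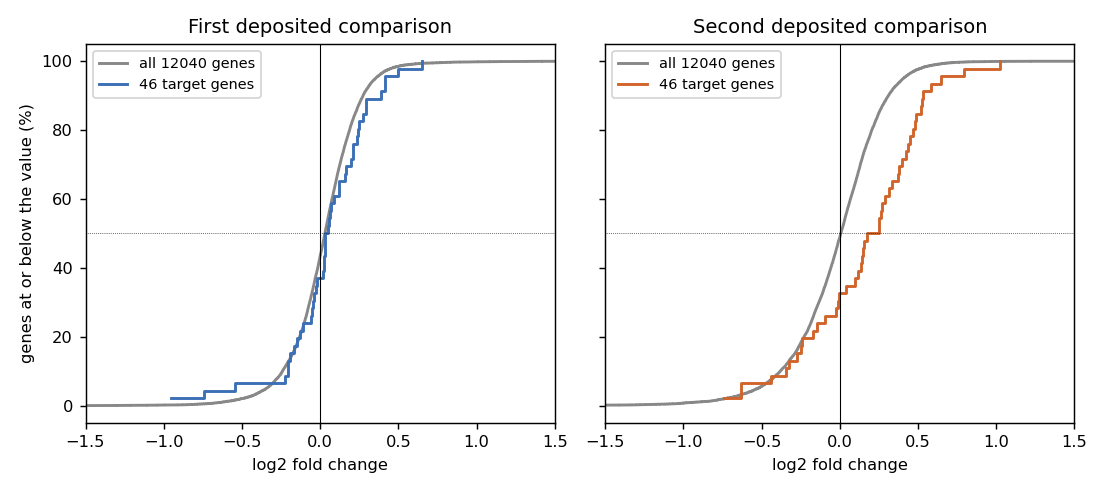
Share of genes (vertical axis, in percent) at or below each log2 fold change (horizontal axis) for the 46 target genes and all 12040 genes in the 2 deposited comparisons. In the second comparison the curve of the target genes runs to the right of all genes above about -0.2 and close to it below, while in the first the curves lie closer together.

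The first minus the second fold change sets the numerator libraries against each other, without the shared denominator. Its median was -0.18 over the 46 genes (quartiles -0.36 and 0.05), against 0.02 over all genes (quartiles -0.18 and 0.24). After the adjustment it was -0.09, with 21 of the 46 above 0 (45.7%). Over the 10357 adjusted genes, grouped by strongest seed match, the adjusted shares above 0 ran from 47.5% to 54.3%. The difference was above 0 in 14 of the 46 (30.4%), against 53.4% of all genes. It was at 1 or more in DPYSL2 and PGBD5 (2 genes, 4.35%, against 1.31%) and at -1 or less in TNKS2 and CROT (2 genes, 4.35%, against 0.349%). A difference of 0.5 or more was found in 4 genes (8.70%, against 8.6%) and of -0.5 or less in 6 (13.0%, against 4.82%).

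GPR137B, a lysosomal membrane protein of the GPR137 family, had the highest value of the 46 in the second comparison and ranked 8 of 12040 genes. The authors' deposited table gave it 0.09 first and 1.02 second, the latter a 2.03-fold increase. After the adjustment the second value was 0.996, just under the size counted as a rise. Its short 3' UTR of 751 bases holds 1 GCACTTT and 1 CACTTTA.

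The E2F factors and their inhibitors, the group for which the family is best known, did not move as one. For E2F1, an activator of S-phase genes, the authors' deposited table gave a first value of 0.19 and a second of -0.25, and values below are given in that order. E2F2 was at -0.04 and -0.44 and E2F3 at -0.03 and -0.24 per the authors' deposited table. Thus all 3 activators lay below 0 in the second comparison, where 31 of the 46 genes lay above it. Of the pocket proteins, which hold E2F factors in check, RBL2 (p130) was at 0.16 and 0.40 per the authors' deposited table. RBL1 (p107) was at -0.21 and -0.14, and RB1 at 0.02 and -0.01, per the authors' deposited table. RBL2 was the 1 pocket protein with an 8-base match, and E2F3, at -0.24 in the second comparison, has one as well.

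The other cell cycle members lay above 0 in both comparisons. ZNF367, a zinc finger transcription factor, had the second highest value of the 46 in both, at 0.50 and 0.80 per the authors' deposited table, and ranked 29 of 12040 in the second. NPAT, the coactivator of histone genes at S-phase entry, was at 0.07 and 0.44 per the authors' deposited table. The authors' deposited table gave ARID4B, an RB-binding chromatin protein, 0.03 and 0.16, and BTG3, an antiproliferative protein, 0.03 and 0.14. Of the 10 genes of this group, 7 had a first value above 0 (against 56.5% of all genes) and 5 a second value above 0 (against 51.1%).

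Among receptors and signalling genes 4 of 10 first values were above 0 (56.5% of all genes) and 7 of 10 second values (51.1% of all genes), and these counts were not tested. TGFBR2, the ligand-binding TGF-beta receptor, stood at 0.23 and 0.38 per the authors' deposited table. EPHA4, an ephrin receptor, whose seed matches begin at bases 51 and 70 of the 3' UTR, stood at 0.41 and 0.45 per the authors' deposited table. PKD2, the polycystin-2 cation channel, was at -0.02 and 0.37, and MAP3K14, the NF-kappaB inducing kinase, at 0.21 and 0.25, per the authors' deposited table.

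The phosphatase genes PTPN4 and PPP6C were at -0.05 and 0.15, and at -0.19 and 0.10, per the authors' deposited table. SOCS6, a suppressor of cytokine signalling, was at -0.06 and 0.11, and the JNK kinase MAPK9 at 0.03 and -0.03, per the authors' deposited table. STAT3, the transcription factor downstream of cytokine receptors, was low in both, at -0.74 and -0.27 per the authors' deposited table. LIMK1, which phosphorylates cofilin, had the lowest value of the 46 in the second comparison, with -0.13 and then -0.74 per the authors' deposited table. Neither reached the size counted as a fall.

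Genes of protein turnover had the highest group median in the second comparison, 0.33 over 7 genes with 6 above 0 (51.1% of all genes), and 0.09 in the first with 4 above 0 (56.5% of all genes). The ubiquitin ligase UBE3C was at 0.12 and 0.53, and the RING protein ANKIB1 at -0.17 and 0.47, per the authors' deposited table. FBXO31, an F-box substrate receptor, was at 0.30 and 0.25, and OSTM1, a lysosomal partner of the chloride transporter CLCN7, at -0.11 and 0.18, per the authors' deposited table. USP3, a histone deubiquitinase, was the member of this group below 0 in the second comparison, at 0.27 and -0.35 per the authors' deposited table. TNKS2, tankyrase-2, had the lowest first value of the 46 and a positive second value, -0.96 and 0.33 per the authors' deposited table. Its difference of -1.29 was the lowest of the 46 and ranked 12 from the bottom of all genes.

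The membrane traffic genes had 5 of 6 members above 0 in each comparison, where 56.5% (first) and 51.1% (second) of all genes lay above 0. FYCO1, an adaptor that links autophagosomes to kinesin, was at 0.29 and 0.48 per the authors' deposited table. The endosomal GTPases RAB22A and RAB5B were at 0.16 and 0.42, and at -0.04 and 0.29, per the authors' deposited table. ANKFY1, a RAB5 effector, was at 0.05 and 0.27, and DNAJC27, a RAB-like GTPase with a J domain, at 0.02 and 0.26, per the authors' deposited table. TRIP10, an F-BAR protein that binds CDC42, alone lay below 0 in the second, at 0.24 and -0.09 per the authors' deposited table.

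The cytoskeletal genes ranged widely in the second comparison. FRMD6, a FERM protein upstream of Hippo signalling, was at 0.41 and 0.53, and LIMA1, an actin-bundling protein, at -0.15 and 0.52, per the authors' deposited table. MFAP3L, a membrane glycoprotein, was at -0.21 and 0.31, and the GTPase RHOC at 0.06 and -0.17, per the authors' deposited table. DPYSL2 (CRMP2), a microtubule-binding protein of growing axons, was at 0.39 and -0.63 per the authors' deposited table, and its difference was 1.02.

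Transcription and RNA genes were likewise divided. ZNFX1, an antiviral helicase, was at 0.25 and 0.65, and ZBTB4, a reader of methylated DNA, at 0.21 and 0.58, per the authors' deposited table. They ranked 90 and 152 of 12040 genes in the second comparison. KLF9, a Krüppel-like factor, was at -0.22 and 0.04, and EIF5A2, a paralog of the translation factor eIF5A, at 0.03 and -0.32, per the authors' deposited table. PGBD5, a gene derived from a transposase and expressed mainly in brain, was the highest of the 46 in the first comparison and among the lowest in the second, at 0.65 and -0.63 per the authors' deposited table. Its difference of 1.28 was the highest of the 46.

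In the remaining group CROT, the peroxisomal carnitine octanoyltransferase, stood at -0.55 and 0.49 per the authors' deposited table, with a difference of -1.03. The ferric reductase gene CYBRD1 was at 0.12 and 0.13, and ANKH, which exports pyrophosphate and ATP, at 0.07 and -0.01, per the authors' deposited table. The largest contrasts between the comparisons thus lay in 2 directions, TNKS2, CROT and GPR137B lower in the first and PGBD5 and DPYSL2 lower in the second.

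**Figure D3:**
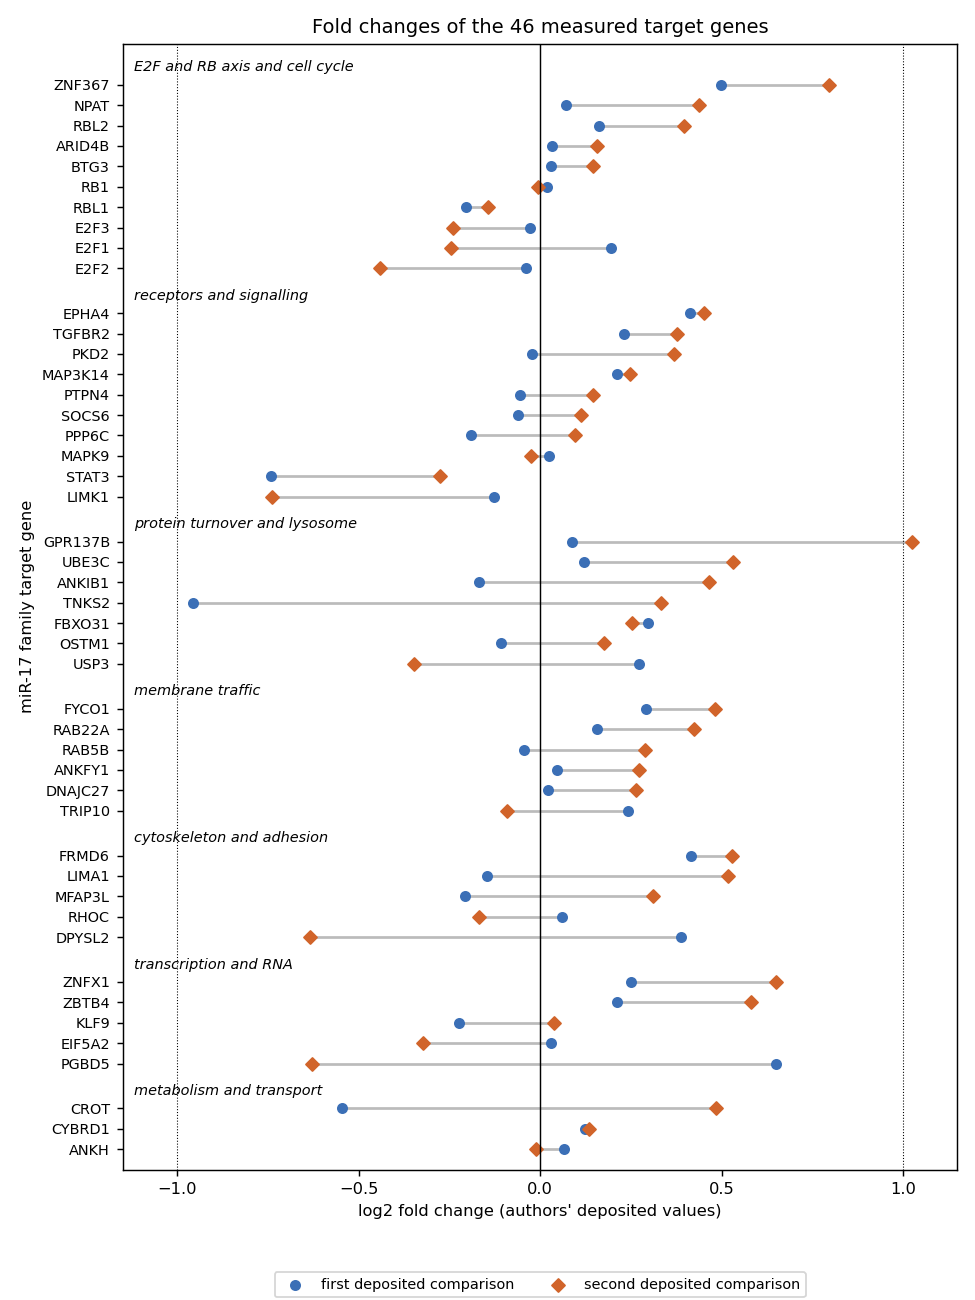
Log2 fold change (horizontal axis) of each of the 46 target genes in the first (circles) and second (diamonds) deposited comparison, grouped by function and joined by a grey line. GPR137B at 1.02 is the 1 point past the dotted lines at 1 and -1.

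Target genes with an 8-base match had the higher median second value, although GPR137B and ZNF367, the highest of the 46, have 7-base matches. The 27 genes with one had a median of 0.29, with 21 above 0 (77.8%, against 65.0% of all genes with an 8-base match). The 19 genes with a 7-base match had a median of 0.04, with 10 above 0 (52.6%, against 57.6% of all such genes). Of all genes in the table, 51.1% lay above 0. In the first comparison the medians were 0.06 and 0.03. By number of matches the second medians were 0.25 for the 27 genes with 2 or more and 0.11 for the 19 with 1. These sets were not tested against each other.

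The same order by site was seen over all genes in the second comparison, at a smaller size. The median second fold change was -0.02 for 5432 genes with no match, 0.01 for 1853 with a 6-base match (CACTTT), 0.05 for 655 with CACTTTA, 0.05 for 1865 with GCACTTT and 0.09 for 552 with GCACTTTA. Each gene was placed by its strongest match, in the order given. In the first comparison the corresponding medians were 0.05, 0.03, -0.0067, 0.02 and -0.00085, with no such order before adjustment. Over the 2371 carriers of GCACTTT or GCACTTTA outside the list, the medians were 0.01 in the first and 0.06 in the second comparison. The 46 listed genes, at 0.21 in the second, stood above the carriers as a whole, but the sets differed in their matches. Of the 46, 27 had GCACTTTA and 19 GCACTTT as strongest match, against 552 and 1865 of all genes. Listed genes with GCACTTTA had a second median of 0.29, above the 0.09 of that class. Those with GCACTTT had 0.04, against 0.05. The 46 were also chosen with earlier results of these data known. The 23 further reported targets with GCACTTT, described below, had a second median of -0.15.

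**Figure D4:**
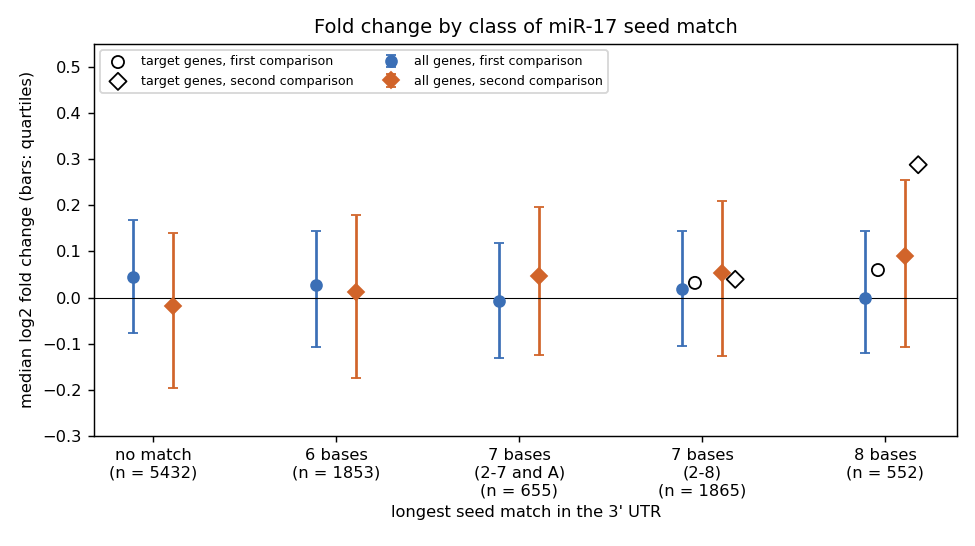
Median log2 fold change (symbols, with bars to the quartiles) of all genes by their strongest seed match in the 3' UTR, for the 2 deposited comparisons, with the medians of the target genes as open symbols. Second-comparison medians run from -0.02 without a match to 0.09 with 8 bases, and the quartile bars of all classes overlap widely.

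Genes with matches have longer 3' UTRs and lower GC content, and GC content moves with the fold changes. Median 3' UTR length was 600.5 bases without any match and 3102 with 8 bases, and median transcript GC content was 52.9% and 44.3%. Across 10357 genes, which are not independent replicates and share the same libraries, Spearman's rho of fold change with GC content was 0.39 in the first and -0.28 in the second comparison, and 0.47 for the difference. With 3' UTR length rho was nearer 0, at -0.12, 0.07 and -0.13. Within each of 4 bins of 3' UTR length, genes with GCACTTT had the higher second median: 0.12 against -0.01 up to 487 bases, 0.03 against -0.01 up to 1190, 0.07 against 0.0019 up to 2526, and 0.06 against 0.0062 beyond. In the first comparison the values were 0.09 against 0.05, 0.07 against 0.05, 0.04 against 0.03, and -0.02 against -6.2e-05.

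The 10357 genes were adjusted by least squares for length and GC content. The second medians were then -0.0043 with no match, -0.0058 with 6 bases, 0.02 with CACTTTA, 0.03 with GCACTTT and 0.06 with GCACTTTA. The adjusted first medians, in the same order of classes, were 0.0264, 0.0362, 0.0376, 0.0401 and 0.0436, so that after adjustment they also rose with the class of match, over a narrower range. The adjusted medians of the 46 target genes, given above, lay above those of every class in both comparisons.

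**Figure D5:**
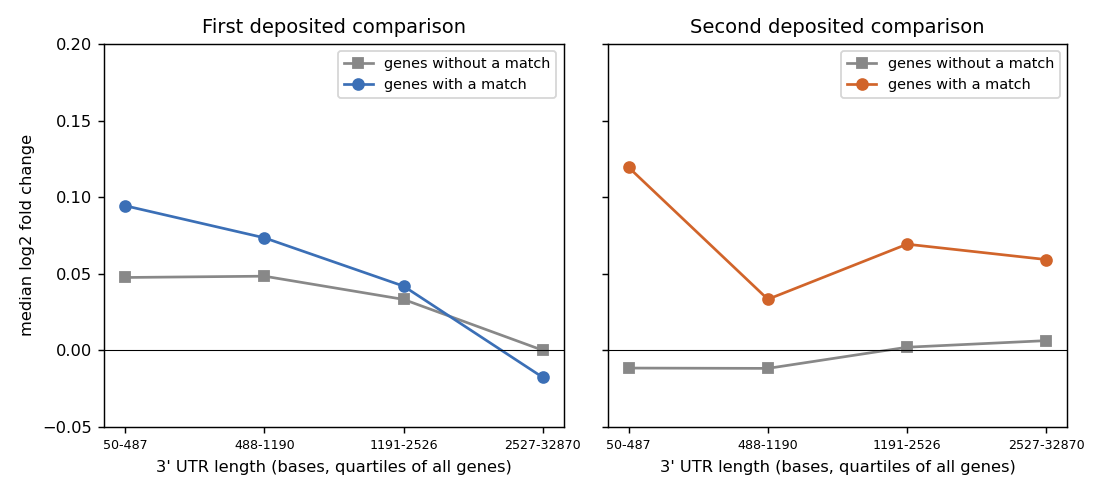
Median log2 fold change of genes with and without GCACTTT in the 3' UTR, by bin of 3' UTR length (in bases), for the 2 deposited comparisons. In the second comparison genes with the match lie above those without in all 4 bins, and in the first the order turns in the longest bin.

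Short sequences unrelated to the miR-17 seed also moved with the values. An earlier analysis of these data picked CAATCTA and AATCTAA from the genes lowest in the first comparison, and GTGACTT and TGACTTA from those lowest in the second. They were searched on the sense strand, overlaps allowed, and occur in 14.4% and 20.8% of all 3' UTRs. Of the 46 genes, 12 carry a motif of the first pair and 19 a motif of the second. TNKS2, STAT3 and CROT, the lowest in the first comparison, all carry one of the first pair, as do 6 of the 8 lowest. In the second comparison 6 of the 8 lowest carry one of the second pair, among them LIMK1, DPYSL2, PGBD5 and E2F2. Of the 8 highest, 1 carries one of the first pair in the first comparison. In the second comparison 2 of the 8 highest, GPR137B and CROT, carry one of the second pair. The first median was -0.11 with and 0.08 without the first pair, and the second median was 0.10 with and 0.29 without the second pair. The motifs were picked from these same values, so the gaps are built in, and their part in the members' values was not tested. The 23 target genes with neither pair had medians of 0.12 and 0.29.

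A further list of 29 reported targets of the family, of which 27 were measured, had the opposite order of medians as deposited. Its values were not summarised after the adjustment for length and GC content, so the order is set only against the unadjusted one of the 46. Its first median was 0.16, above that of the 46 genes, with 18 of 27 above 0 (66.7%, against 56.5% of all genes). Its second median was -0.14, with 12 of 27 above 0 (44.4%, against 51.1%). For the 23 of them with GCACTTT the second median was -0.15. Over all genes 0.174% rose and 0.166% fell in the first comparison, and 0.0831% and 0.748% in the second. TXNIP, an inhibitor of thioredoxin, alone rose in the first comparison, at 1.28 and 0.81 per the authors' deposited table. SQSTM1, an autophagy receptor, alone fell there, at -1.27 and -0.14 per the authors' deposited table. In the second comparison none rose and CDKN1A, the cell cycle inhibitor p21, alone fell, at 0.48 and -1.01 per the authors' deposited table. MICA, a ligand of natural killer cells, was at -0.11 and 0.95 per the authors' deposited table.

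Of 17 symbols of microRNA processing and silencing, 13 were measured and none rose, where 0.174% (first) and 0.0831% (second) of all genes did. The symbols without a value, AGO1 to AGO4, are other names of EIF2C1 to EIF2C4, which were measured. The only fall was that of DICER1 in the first comparison and that of DROSHA in the second, where 0.166% and 0.748% of all genes fell. DGCR8, the partner of DROSHA, was at 0.17 and 0.54 per the authors' deposited table. The Argonaute genes were divided in the second comparison, with EIF2C1 and EIF2C2 both at -0.44, EIF2C3 at 0.53 and EIF2C4 at 0.10 per the authors' deposited table. Their first values per the authors' deposited table were 0.24, -0.13, 0.03 and -0.40 in that order. The genes of the GW182 proteins, which recruit deadenylases, were divided as well, with TNRC6A at -0.23 and -0.55, TNRC6B at -0.02 and 0.31, and TNRC6C at 0.16 and 0.04 per the authors' deposited table.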

How the data were processed

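Poly(A) RNA of 3 HEK293 libraries, 1 per group, was analysed from the authors' deposited log2 fold changes for 12040 genes. Per the submitters' processing notes, hg19 and TopHat2 2.06, Cuffdiff 2.1.1, Cufflinks, CASAVA 1.8.2 and SAMtools were used, in roles not given. In all 12040 genes each deposited log2 value equalled, within 1e-11, the log2 ratio of a level to a shared denominator level after adding 1, which shrinks low genes. The 3 level columns carry no name, match no label and were not used otherwise, so genes were not matched on level. Depth is unknown. No source here states strand handling.

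The first minus the second value was computed per gene. Genes were described by counts and medians beside all genes, with no test. The rule named in full the 8 highest and 8 lowest members of each comparison, the 6 highest and lowest of the difference, the E2F and RB genes and TGFBR2; the others, which it gave by range and count, were given with values too. The members and lists were chosen with earlier results of these data known. Sites came from 1 protein-coding transcript per gene (GENCODE 29, GRCh38, a later build than the table's, best APPRIS rank, then longest), matched by symbol for 10571 genes, 10357 with a 3' UTR of at least 50 bases. Adjustment used length, 3' UTR length (both log2) and GC content with squares. Scripts ran in Python 3.11.15 and were tested on simulated data. Some results are not reported here.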

Additional observations from a re-analysis of the deposited data

How the results depend on the processing

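With 1 library per group nothing could be left out in turn. No paired analysis was possible because each group has 1 library. The medians of the 46 genes (0.04 first, 0.21 second, -0.18 difference) kept their sign under every alternative run. In the first comparison the median was 0.0094 after re-centring on all genes, 0.10 after adjustment for length and GC content and 0.12 without genes carrying a seed-like 7-mer. The difference had a mean of -0.12 and an adjusted median of -0.0908. The second median stayed between 0.16 (as a mean) and 0.29 (without seed-like 7-mers). Those 7-mers were picked from the lowest genes of these same values. The higher medians without their carriers are therefore built in. At a size of 0.5 the counts higher and lower were 1 and 3 in the first, 7 and 3 in the second and 4 and 6 in the difference. At 0.25 they were 9 and 3, 22 and 7, and 8 and 18. Shares of all genes past 0.25 were not counted, so it is not known which of these counts are unusual. The quartiles of the difference over all genes, -0.18 and 0.24, were near that size. After adjustment GPR137B stood at 0.996, so 0 genes rose in the second, and 1 gene stayed at -1 or less in the difference, with CROT at -0.85. Re-centring left 1 gene at 1 or more in the difference, with DPYSL2 at 0.997. Without genes carrying a seed-like 7-mer, 0 genes were past 1 in either direction in any comparison, since all 5 such genes carry one. Leaving out E2F and RB genes changed no count. All 46 genes hold a seed match, so the alternative with genes lacking one was not run. Single values kept their sign in 133 of 138 cases after re-centring and in 123 of 138 after adjustment, and in all 24 of those at least 0.5 in size under both.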
